A study of Mus musculus with 18 samples.

Results

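Irf8, Batf3, Id2, Nfil3, Zfp366 and Bcl6 are the transcription regulators best known for making or keeping the type 1 conventional dendritic cell (cDC1) of the mouse. They are described here in RNA sequencing of sorted splenic dendritic cells. The 6 genes were chosen by symbol, and all 6 were listed in each of the 3 count tables, among 15219 genes that the tables share. All 6 passed the filter on low counts, which kept 13539 genes. The sorted subsets were cDC1 (lineage-negative, CD11c+ MHCII+ CD64-, XCR1+ CD11b-), type 2 conventional dendritic cells (cDC2, the same gate but XCR1- CD11b+) and plasmacytoid dendritic cells (pDC, lineage-negative, CD64-, CD11b-, CD11c intermediate, BST2+), with 6 libraries each. The study set HDAC1 Mx1-Cre mice against HDAC1 floxed controls, and the labels give 3 samples of each genotype in each subset. HDAC1 is a histone deacetylase, a class of enzyme that removes acetyl groups from histones. Both genotypes received polyI:C, a double-stranded RNA mimic that switches on the interferon-responsive Mx1 promoter driving Cre, and cells were sorted 2 weeks later. Mx1-Cre is not specific to dendritic cells. Control mice therefore share the floxed allele and the interferon-inducing treatment with the mutants. Neither the ages nor the sexes of the mice are stated in the labels used here.

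The columns of the count tables carry codes that do not name a genotype, so no column was given one, and only the subsets are compared. The spread within each subset includes both genotypes. Whether the 6 columns of a subset came from 6 mice, and whether the subsets came from the same mice, is not stated in the labels, so p-values measure the spread between these libraries. Total counts ran between 23530860 and 37105002 per library. Each of the 18 libraries correlated best with others of its own subset (Spearman at least 0.976 within and at most 0.937 between subsets). Xcr1, the chemokine receptor of the cDC1 gate, averaged 960 counts per 1000000 counts of the library (CPM) in cDC1, against 8.16 CPM in cDC2 and 1.94 CPM in pDC. Siglech, a surface lectin of pDC, averaged 22.8 CPM in cDC1 and 9.13 CPM in cDC2, against 8626 CPM in pDC. The summed CPM of 17 cDC1 markers was 12089 to 15800 in cDC1 and 501 to 574 in cDC2, and the 15 of them that the pDC table lists summed to 649 to 711 in pDC. The 14 cDC2 markers did not single out cDC2: they summed to 389 to 580 CPM in cDC1 and 1943 to 2408 CPM in cDC2, but to 2796 to 3252 CPM in pDC. Hdac1 itself varied between 4.94 and 74.6 CPM among the cDC1 libraries, between 5.78 and 79.7 CPM among the cDC2 libraries, and between 9.52 and 124 CPM among the pDC libraries.

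Dendritic cells share a progenitor, and the choice between subsets is made by regulators that oppose each other. IRF8, an interferon regulatory factor, is required for cDC1. In committed cDC1 progenitors BATF3, a basic leucine zipper (bZIP) protein, keeps Irf8 transcribed through an enhancer of that gene, and IRF8 is also abundant in pDC. ID2 lacks a DNA-binding domain and holds E proteins such as TCF4, the main pDC regulator, away from the E-boxes (CANNTG) they bind. NFIL3, a bZIP repressor, acts early by repressing Zeb2, and ZEB2 in turn restrains Id2. Zfp366 encodes DC-SCRIPT, a zinc-finger protein that helps sustain Irf8 expression in cDC1. BCL6 is a zinc-finger repressor whose loss reduces cDC1.

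Because E proteins and the ID2 that restrains them are both among these regulators, the start-site windows of 4 of the genes are shown with every E-box core (CANNTG) in capitals. RefSeq promoter windows on GRCm38.p6, 250 bases before to 50 bases after the start, were found for 5 of the 6 genes, and Zfp366 is named only. The windows below are chr8:120736108-120736407 (plus strand) for Irf8, chr1:191098164-191098463 (plus strand) for Batf3, chr12:25096043-25096342 (minus strand) for Id2 and chr16:23988803-23989102 (minus strand) for Bcl6. Each is written 5′ to 3′ on its gene's strand.
Irf8: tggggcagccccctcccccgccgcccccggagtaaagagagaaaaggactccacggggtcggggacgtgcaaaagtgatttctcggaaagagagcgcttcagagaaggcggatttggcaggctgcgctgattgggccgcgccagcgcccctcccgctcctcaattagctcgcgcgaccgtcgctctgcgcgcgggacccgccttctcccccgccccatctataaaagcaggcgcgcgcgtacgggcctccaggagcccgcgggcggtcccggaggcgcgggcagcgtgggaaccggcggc
Batf3: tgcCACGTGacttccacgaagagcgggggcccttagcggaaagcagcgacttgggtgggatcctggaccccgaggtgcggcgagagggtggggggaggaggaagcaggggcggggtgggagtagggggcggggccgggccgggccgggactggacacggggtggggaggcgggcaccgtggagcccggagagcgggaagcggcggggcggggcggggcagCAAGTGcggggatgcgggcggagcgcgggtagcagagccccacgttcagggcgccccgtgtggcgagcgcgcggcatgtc
Id2: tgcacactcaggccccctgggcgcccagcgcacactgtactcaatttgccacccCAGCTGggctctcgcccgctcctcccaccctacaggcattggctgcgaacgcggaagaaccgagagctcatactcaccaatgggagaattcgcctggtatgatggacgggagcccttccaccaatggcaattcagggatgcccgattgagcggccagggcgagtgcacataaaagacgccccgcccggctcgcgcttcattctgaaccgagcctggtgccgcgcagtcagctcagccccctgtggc
Bcl6: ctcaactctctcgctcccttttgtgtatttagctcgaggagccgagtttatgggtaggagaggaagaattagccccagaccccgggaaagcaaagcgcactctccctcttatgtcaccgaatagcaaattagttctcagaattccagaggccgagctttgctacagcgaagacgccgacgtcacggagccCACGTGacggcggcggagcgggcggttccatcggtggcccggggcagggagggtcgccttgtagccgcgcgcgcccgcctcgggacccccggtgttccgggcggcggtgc
This Irf8 window holds no E-box core, whereas Batf3 holds CACGTG starting at base 4 and also CAAGTG. Id2 holds CAGCTG at base 55, and Bcl6 holds CACGTG at base 191. Over 27025 promoter windows of the same length, CACGTG was present in 7.24% and the core CANNTG, which includes CACGTG, in 72.1%. The Nfil3 window, not shown, holds 1 CAGCTG. A second Irf8 window holds 2 cores, CAGGTG and CACTTG. Searched on both strands, the interferon-response pair GAAA followed by GAAA after any 2 bases (3.49% of windows), the AP-1 site TGANTCA (7.93%) and the PAR bZIP site TTANNTAA (6.08%) were absent from all windows of these genes. The composite ETS-IRF motif, GGAA followed by GAAA after any 2 bases (2.79%), was present once, in a second Bcl6 window. The ETS-IRF motif and the interferon-response pair can share bases, and the matches are descriptions of letters in these windows.

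Irf8, Batf3, Id2 and Zfp366 were higher in cDC1 than in cDC2, Nfil3 was lower, and Bcl6 did not pass the test. Against pDC, 5 of the 6 were higher in cDC1 and Irf8 was lower. Differences were tested with edgeR's quasi-likelihood test in 1 fit over the 18 libraries, and a gene was called at a Benjamini-Hochberg adjusted p under 0.05 over all 13539 genes. The background is wide: 24.8% of all tested genes were called higher and 25.7% lower in cDC1 than in cDC2. In cDC1 against pDC the shares were 34.3% higher and 32.1% lower, and in cDC2 against pDC they were 32.2% higher and 32% lower. Batf3, Id2 and Zfp366, 3 of the 6 genes, were higher in cDC1 than in both other subsets, as were 14.1% of all tested genes. The median log2 difference of the 6 genes was 0.66 for cDC1 against cDC2 and 4.44 for cDC1 against pDC, where the medians over all genes were 0.01 and 0.04. In bulk libraries, fewer cells of a type and less RNA per cell cannot be told apart.

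**Figure D1:**
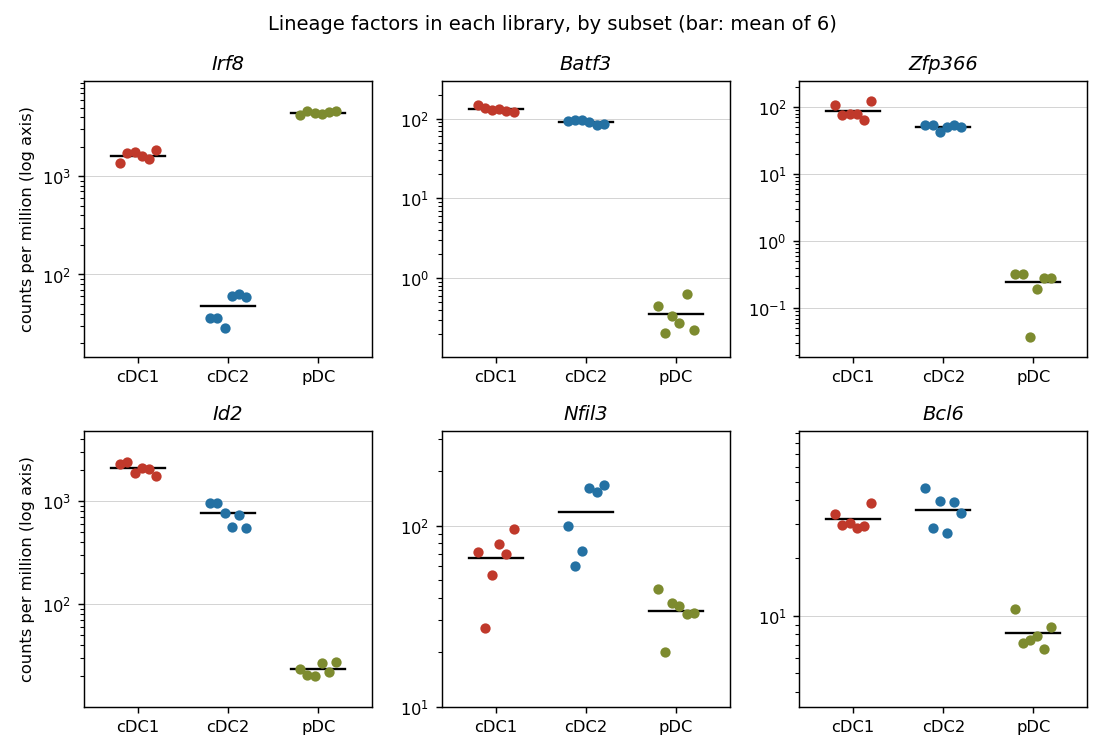
CPM (log axis) of Irf8, Batf3, Id2, Nfil3, Zfp366 and Bcl6 in each of 6 cDC1, 6 cDC2 and 6 pDC libraries; points are libraries and bars are subset means. Irf8 is the only one of the 6 with its highest points in pDC, at 4210 to 4662 CPM, while Batf3 and Zfp366 lie below 1 CPM there.

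Irf8, the interferon regulatory factor at the centre of the cDC1 programme, stood at a lowest, median and highest value of 1348, 1662 and 1831 CPM in cDC1. It stood at 28.7, 47.5 and 63.3 CPM in cDC2, and at 4210, 4445 and 4662 CPM in pDC. The 3 subsets did not overlap, and their order was pDC, cDC1, cDC2. Irf8 was 34.5-fold higher in cDC1 than in cDC2, a log2 difference of 5.11 (SE 0.19, 95% interval 4.71 to 5.50, edgeR adjusted p = 2.45e-14). Of all tested genes, 0.214% had a log2 difference at least as high. Against pDC, Irf8 was lower in cDC1 by a log2 difference of -1.24 (SE 0.16, interval -1.58 to -0.90, edgeR adjusted p = 1.11e-06), pDC being 2.36-fold above cDC1. In cDC2 against pDC the log2 difference was -6.34 (SE 0.20, edgeR adjusted p = 3.61e-16). The Irf8 mean in cDC2 was 2.91% of that in cDC1 and 1.06% of that in pDC. In the same cDC2 libraries the 15 tested cDC1 markers were at 0.0492% (Gcsam) to 37.3% (Wdfy4) of their cDC1 means, with a median of 2.46%, 8 of them below and 7 above Irf8, and the pDC marker Siglech was at 0.106% of its pDC mean. The cDC1 markers Cd207 and Fzd1, not tested, averaged 0.296 and 0.0558 CPM in cDC2 against 108 and 15.7 CPM in cDC1. How much of the cDC2 Irf8 came from other cells was not tested.

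Batf3, the bZIP partner that maintains Irf8, stood at 122, 130 and 148 CPM (lowest, median and highest) in cDC1. It stood at 84.2, 91.9 and 96.8 CPM in cDC2 and at 0.202, 0.303 and 0.637 CPM in pDC, where each library held only 5 to 20 counts. Every cDC1 library was above every cDC2 library, and both were far above pDC. The step between the conventional subsets was small: Batf3 was 1.46-fold higher in cDC1, a log2 difference of 0.54 (SE 0.11, interval 0.32 to 0.76, edgeR adjusted p = 0.000221), and 17.8% of all genes had a difference at least as high. Against pDC it was 425-fold higher in cDC1, a log2 difference of 8.73 (SE 0.17, interval 8.38 to 9.08, edgeR adjusted p = 3.57e-19), which 0.155% of genes reached. In cDC2 against pDC the log2 difference was 8.19 (SE 0.17, edgeR adjusted p = 1.22e-18).

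Zfp366, the gene of DC-SCRIPT, stood at 64.9, 78.7 and 122 CPM in cDC1. It stood at 43.1, 52.1 and 53.8 CPM in cDC2 and at 0.0372, 0.285 and 0.327 CPM in pDC, on 1 to 9 counts per library. The groups did not overlap, and cDC1 was highest. Zfp366 was 1.72-fold higher in cDC1 than in cDC2 (log2 difference 0.78, SE 0.12, interval 0.53 to 1.04, edgeR adjusted p = 2.1e-05). Against pDC it was 410-fold higher in cDC1 (log2 difference 8.68, SE 0.20, interval 8.26 to 9.10, edgeR adjusted p = 5.63e-18), and in cDC2 against pDC the log2 difference was 7.90 (SE 0.20, edgeR adjusted p = 1.36e-17). The pDC means of Batf3 and Zfp366 were 0.268% and 0.275% of their cDC1 means. Those of the 15 tested cDC1 markers in the same pDC libraries ran between 0.0602% (Tlr11) and 111% (Tlr3), with a median of 1.35%, and 10 of the 15 were above Batf3 and Zfp366. The cDC1 markers Cd207 and Fzd1 averaged 108 and 15.7 CPM in cDC1 but are not listed for pDC. Their absence from these figures leaves out markers that may be among the lowest in pDC. The part of other sorted cells in these low pDC levels was not tested.

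Id2, the inhibitor of E proteins, stood at 1763, 2086 and 2405 CPM in cDC1. It stood at 554, 753 and 966 CPM in cDC2 and at 20.2, 22.7 and 27.7 CPM in pDC. The order was cDC1, cDC2, pDC with no overlap at either step. Id2 was 2.79-fold higher in cDC1 than in cDC2 (log2 difference 1.48, SE 0.14, interval 1.18 to 1.78, edgeR adjusted p = 2.89e-08). Against pDC it was 104-fold higher in cDC1 (log2 difference 6.70, SE 0.18, interval 6.33 to 7.07, edgeR adjusted p = 2.91e-17). In cDC2 against pDC the log2 difference was 5.22 (SE 0.17, edgeR adjusted p = 3.79e-16). Id2 had 507 to 880 counts in each pDC library, and its pDC mean was 1.12% of its cDC1 mean.

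Nfil3, the bZIP repressor that acts upstream in progenitors, stood at 27.3, 70.5 and 95.2 CPM in cDC1. It stood at 59.9, 126 and 166.9 CPM in cDC2 and at 19.9, 34.5 and 44.7 CPM in pDC. It was highest in cDC2, but cDC1 overlapped both other subsets. The log2 difference of cDC1 against cDC2 was -0.85 (SE 0.28, interval -1.42 to -0.27, edgeR adjusted p = 0.015), the call nearest the threshold among these genes. Against pDC, Nfil3 was 2.25-fold higher in cDC1 (log2 difference 1.17, SE 0.28, interval 0.58 to 1.76, edgeR adjusted p = 0.00106). The step of cDC2 against pDC did not overlap (log2 difference 2.02, SE 0.29, edgeR adjusted p = 3.28e-06). In each subset the library with the lowest Nfil3 (a160, a161 and a162 by the tables' column codes) was also the lowest for Atf3, a stress-induced bZIP gene singled out after its values were seen. Atf3 was at 81.7 CPM in that cDC1 library against 188 CPM in the next lowest, at 445 against 568 CPM in cDC2, and at 16.6 against 37.2 CPM in pDC. The part of whatever Atf3 and Nfil3 share in these libraries was not tested.

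Bcl6, the zinc-finger repressor, stood at 28.7, 30.2 and 38.9 CPM in cDC1. It stood at 26.9, 36.9 and 46.3 CPM in cDC2 and at 6.69, 7.66 and 10.8 CPM in pDC. The conventional subsets overlapped across most of their ranges and both were above every pDC library. The log2 difference of cDC1 against cDC2 was -0.16 (SE 0.12, edgeR adjusted p = 0.274), with an interval of -0.41 to 0.09. Bcl6 was 4.52-fold higher in cDC1 than in pDC (log2 difference 2.18, SE 0.13, interval 1.91 to 2.44, edgeR adjusted p = 5.04e-12). In cDC2 against pDC the log2 difference was 2.34 (SE 0.13, edgeR adjusted p = 1.7e-12).

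**Figure D2:**
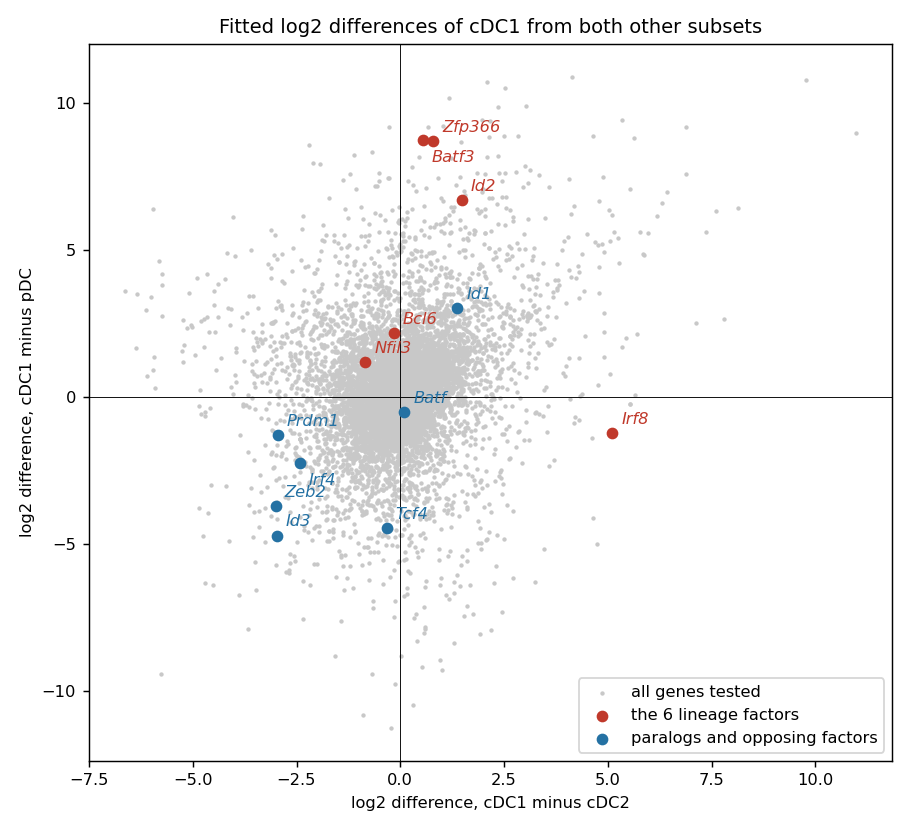
Fitted log2 differences of all tested genes (grey), of the 6 regulators and of their partners, with cDC1 minus cDC2 on the horizontal axis and cDC1 minus pDC on the vertical axis. Of the 6 regulators only Irf8 lies at the lower right, at 5.11 and -1.24, while Batf3 and Zfp366 lie side by side near the top, at 8.73 and 8.68 on the vertical axis.

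Per kilobase of exonic sequence (GENCODE M21, GRCm38), the regulators stood in a different order in each subset. In cDC1 Id2 led with 855 ± 102 CPM per kb, followed by Irf8 with 230 ± 25.6, Batf3 with 82.5 ± 6.03, Nfil3 with 32.6 ± 11.5, Zfp366 with 13.8 ± 3.43 and Bcl6 with 4.76 ± 0.580 CPM per kb (SD, n = 6). No 2 neighbours in that order lay within their SDs of each other. In cDC2 Id2 again led with 311 ± 74.4 CPM per kb, but Nfil3 (58.7 ± 23.5) and Batf3 (57.2 ± 3.25 CPM per kb) could not be separated. There Zfp366 (7.98 ± 0.635), Irf8 (6.71 ± 2.16) and Bcl6 (5.35 ± 1.09 CPM per kb) were likewise within their spread of the next in order. In pDC Irf8 stood at 629.9 ± 24.7 CPM per kb, far above Nfil3 at 16.7 ± 4.01 and Id2 at 9.62 ± 1.32 CPM per kb. Bcl6 (1.21 ± 0.221), Batf3 (0.221 ± 0.104) and Zfp366 (0.0379 ± 0.0174 CPM per kb) were lowest in pDC. The transcript lengths used by the authors' counting are not given in the sources used here.

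The genes lie on 5 chromosomes. Irf8 spans chr8:120736358-120756694 (plus strand, 7055 bp of exons) and Batf3 spans chr1:191097847-191108945 (plus strand, 1597 bp). Id2 spans chr12:25093799-25097140 (minus strand, 2438 bp) and Bcl6 spans chr16:23965052-23988852 (minus strand, 6700 bp). Nfil3 (chr13:52967209-52981073, minus strand, 2026 bp) and Zfp366 (chr13:99184823-99250656, plus strand, 6382 bp) share chromosome 13 but are far apart. The annotation overlaps Irf8 with Gm20388 and Bcl6 with Gm37419, neither of which is listed in the tables, so reads shared with them cannot be told apart.

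The 6 genes differed in how much they varied among libraries of 1 subset. Batf3 was among the steadiest genes in cDC1, with a coefficient of variation (CV) of 7.30%, and 95.7% of genes varied more. Its CV was 5.68% in cDC2, where 94.4% of genes varied more. Irf8 was steady in pDC (CV 3.92%, with 97.6% of genes varying more) and in cDC1 (11.1%), but its CV was 32.2% in cDC2, on 749 to 1987 counts. Its cDC2 values fell into a lower and a higher set. They were 36.1, 36.3 and 28.7 CPM in a158, a161 and a165, and 60.8, 63.3 and 58.8 CPM in a167, a170 and a173. Hdac1, the targeted gene, divided along the same cDC2 libraries. It was at 76.6, 66.1 and 79.7 CPM in a158, a161 and a165, and at 6.07, 5.78 and 7.60 CPM in a167, a170 and a173. What lay behind the Irf8 split was not tested. Nfil3 had the highest CV of the 6 genes in cDC1 (35.3%) and in cDC2 (40.0%). The medians over all genes there were 21.99% and 15.6%. In cDC2 Nfil3 divided along the same libraries as Irf8. It was at 99.2, 59.9 and 72.8 CPM in a158, a161 and a165. It was at 161.6, 153.6 and 166.9 CPM in a167, a170 and a173. Atf3 in cDC2 did not divide this way, at 907 and 658 CPM in a158 and a165 but 568 CPM in a167. Id2, Batf3 and Irf4 were higher in a158, a161 and a165 than in the other cDC2 libraries, without overlap. Id2 was at 961, 966 and 774 CPM there, and at 564, 733 and 554 CPM in a167, a170 and a173. Zeb2, Id3, Prdm1 and Tcf4 were lower in a158, a161 and a165, again without overlap. Zfp366, Bcl6, Batf and Id1 overlapped between the sets. The source of these divisions was not tested. Zfp366 had a CV of 24.8% in cDC1 and 7.96% in cDC2. The CVs of Batf3 (47.0%) and Zfp366 (46.0%) in pDC rest on the few counts given above.

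Genes whose 2 differences, cDC1 minus cDC2 and cDC1 minus pDC, lay closest to those of each regulator were ranked by the larger of the 2 gaps over the 18 libraries. Batf3 and Zfp366 were each other's nearest gene, with a largest gap of 0.24 on the log2 scale. The next for Batf3 were Lad1 (0.44) and Cxcl16 (0.48), and the next for Zfp366 were Lad1 (0.49) and Anpep (0.51). Irf8 had few near neighbours: Cxcr3, a chemokine receptor, came within 0.48, followed by Sh2d5 (0.79) and Dync2li1 (0.89). Id2 was nearest to Cacnb3 (0.17), Cd9 (0.25) and Slamf8 (0.27). Nfil3 was nearest to Fkbp9, Zfp184 and Epb41l3 (each 0.03), and Bcl6 to Tuft1 (0.02), Deptor (0.05) and Atp2b2 (0.06), in parts of the plot where many genes lie.

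Several known opponents and relatives of these regulators were lowest in cDC1. Zeb2, the target of NFIL3 that restrains Id2, averaged 11.7 CPM in cDC1, against 92.6 CPM in cDC2 and 177 CPM in pDC. Its log2 differences were -3.01 from cDC2 (SE 0.19, edgeR adjusted p = 8.07e-11) and -3.73 from pDC (SE 0.20, edgeR adjusted p = 1.13e-12). Irf4, the relative of Irf8 used by cDC2, averaged 7.11 CPM in cDC1, 37.7 CPM in cDC2 and 38.3 CPM in pDC, with log2 differences of -2.42 and -2.25 (edgeR adjusted p = 1.01e-06 and 1.19e-06). Prdm1, which encodes BLIMP1, a repressor that opposes BCL6 in B cells, averaged 1.22 CPM in cDC1, 9.46 CPM in cDC2 and 3.47 CPM in pDC, with log2 differences of -2.95 and -1.30 (edgeR adjusted p = 5.62e-08 and 0.000534).

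The relatives of Id2 split. Id3, another inhibitor of E proteins, averaged 2.13 CPM in cDC1, 16.9 CPM in cDC2 and 65.6 CPM in pDC, and was lower in cDC1 by log2 differences of -2.97 and -4.72 (edgeR adjusted p = 1.64e-07 and 1.06e-10). Id1 was low everywhere, at 2.16 CPM in cDC1, 0.844 CPM in cDC2 and 0.313 CPM in pDC, and was higher in cDC1 by 1.37 and 3.01 (edgeR adjusted p = 0.00252 and 8.04e-07). Tcf4, the E protein of the pDC fate, averaged 48.9 CPM in cDC1, 60.9 CPM in cDC2 and 1243 CPM in pDC. Its log2 difference was -4.47 from pDC (edgeR adjusted p = 9.23e-17) and -0.33 from cDC2 (edgeR adjusted p = 0.0208). The second call was lost when libraries were scaled by totals alone (adjusted p = 0.0516, edgeR). The E protein gene Tcf12 was higher in cDC1 than in cDC2 (log2 difference 0.49, edgeR adjusted p = 0.000364) and lower than in pDC (-2.25, edgeR adjusted p = 8.6e-14).

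Among the relatives of Batf3, Batf averaged 33.3 CPM in cDC1, 31.3 CPM in cDC2 and 55.3 CPM in pDC, with log2 differences of 0.09 (edgeR adjusted p = 0.421) and -0.52 (edgeR adjusted p = 4.43e-05). Batf2 averaged 5.25 CPM in cDC1 and 1.89 CPM in cDC2 and was not tested, since the pDC table used here does not list it. In this list of BATF relatives and AP-1 partners, 0 of 10 tested genes were higher and 8 were lower in cDC1 than in cDC2, with a median log2 difference of -1.05. For this list and those below, the shares over all tested genes were 24.8% higher and 25.7% lower against cDC2. Against pDC they were 34.3% higher and 32.1% lower. Among the genes of this list lower than in cDC2 were Fosl2 (-1.89), Atf3 (-1.69) and Jun (-1.09). Against pDC, 4 of the 10 were higher and 3 lower in cDC1 (3 and 4 with totals alone), led by Atf3 (2.64), Fosl2 (2.10), Junb (1.58) and Jun (-1.18).

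**Figure D3:**
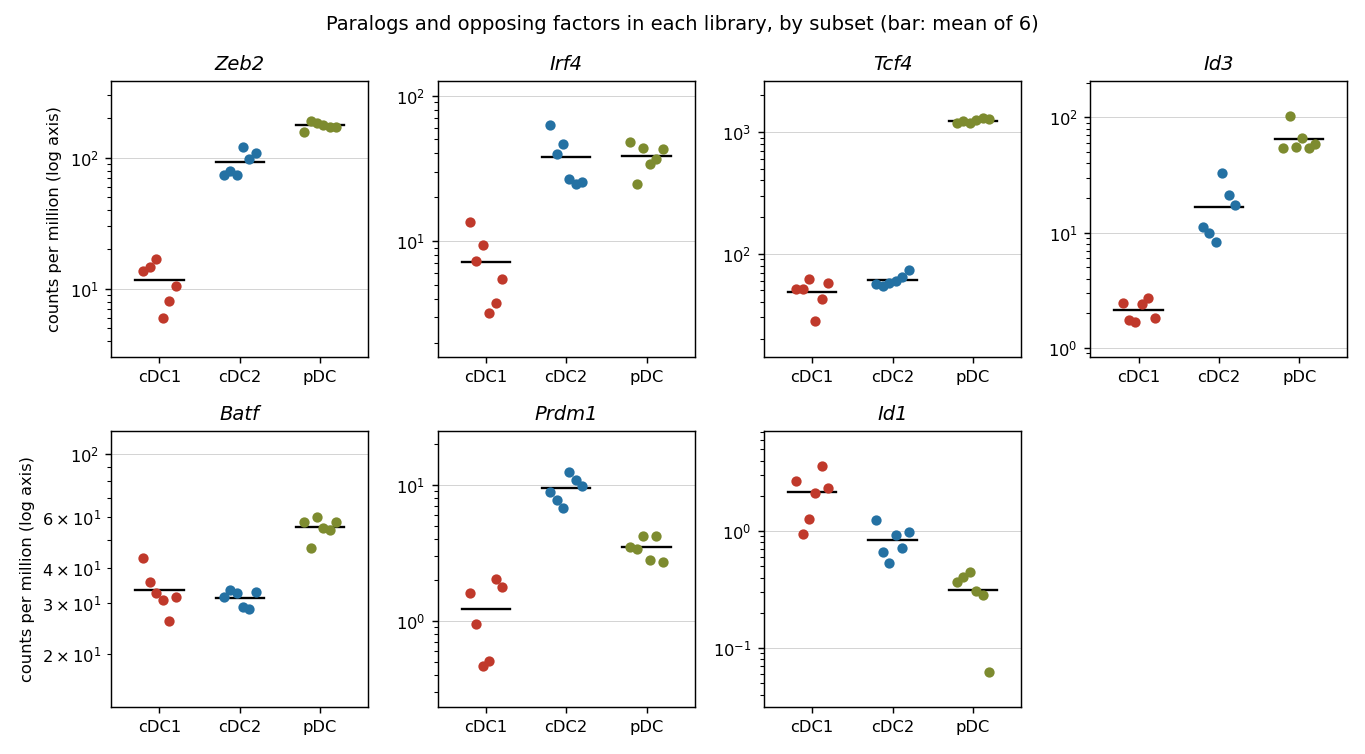
CPM (log axis) of Zeb2, Irf4, Tcf4, Batf, Id3, Prdm1 and Id1 in each of 6 cDC1, 6 cDC2 and 6 pDC libraries. Points are libraries and bars are subset means. Zeb2, Irf4, Id3 and Prdm1 have their lowest points in cDC1, and Tcf4 is at 1177 to 1311 CPM in pDC against no more than 73.2 CPM in cDC2.

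The rest of the Irf8 family was mixed. Of the 8 other interferon regulatory factor genes, 3 were higher and 4 lower in cDC1 than in cDC2 (3 and 2 with totals alone), with a median log2 difference of -0.02. Against pDC 3 were higher and 5 lower (2 and 5 with totals alone). Irf5 was higher in cDC1 than in both, by 0.89 and 1.15 on the log2 scale. Irf7, the interferon gene activator abundant in pDC, averaged 81.0 CPM in cDC1, 75.6 CPM in cDC2 and 346 CPM in pDC, with a log2 difference of -1.89 from pDC.

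Nfil3 shares its binding sequence with the PAR bZIP factors, and these were listed with the CEBP genes. Of 6 tested, 5 were lower, 0 higher and 1 not called in cDC1 against cDC2, and 6 were lower than in pDC. Against cDC2 the largest log2 differences were those of Cebpb (-2.70), Cebpd (-1.86), Dbp (-1.68) and Tef (-1.21). Against pDC they were those of Cebpd (-2.64), Tef (-1.83), Cebpb (-1.60) and Dbp (-1.37).

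Partners of BCL6 and DC-SCRIPT showed no common direction. Of 8 tested genes that work with or against BCL6, or belong to its family, 3 were higher and 2 lower in cDC1 than in cDC2, and 2 were higher and 3 lower than in pDC (2 and 5 with totals alone). Zbtb46, a zinc-finger gene that marks conventional dendritic cells, averaged 97.9 CPM in cDC1, 98.0 CPM in cDC2 and 3.05 CPM in pDC, a log2 difference of 5.20 from pDC. Ctbp2, a corepressor that DC-SCRIPT can bind, was higher in cDC1 than in cDC2 (0.92, edgeR adjusted p = 0.000297) and than in pDC (3.01, edgeR adjusted p = 4.37e-11). Its paralogue Ctbp1 did not pass the test against cDC2 (-0.04) and was lower than in pDC (-0.70, edgeR adjusted p = 2.2e-06). Of the 4 genes in the list with Ctbp1 and Ctbp2, 1 was higher and 2 lower than in cDC2, and 3 were higher and 1 lower than in pDC (1 and 1 with totals alone).

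Among 18 other tested regulators of dendritic cells or their progenitors, 2 were higher and 11 lower in cDC1 than in cDC2, with a median log2 difference of -0.75. Beside Zeb2, the largest were Klf4 (-2.56), a cDC2 regulator, Mycl (2.01), a MYC relative known in cDC1, and Spib (-1.77), a pDC regulator. Against pDC 10 were higher and 6 lower (9 and 7 with totals alone), led by Runx2 (-4.96), Spib (-4.91), Zeb2 (-3.73) and Ikzf3 (-3.40).

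Ratios of counts within a library need no scaling between libraries. The pairs were picked after values were seen, so they are described without a test. The ratio of Id2 to Zeb2 had a median of 169.3 in cDC1 (109 to 348), of 8.98 in cDC2 (4.66 to 12.9) and of 0.138 in pDC (0.107 to 0.160). The ratio of Id2 to Tcf4 had a median of 46.0 in cDC1 (29.9 to 74.3), 12.5 in cDC2 (7.57 to 17.7) and 0.0184 in pDC (0.0165 to 0.0217). Both ratios fell into 3 separate ranges in the order cDC1, cDC2, pDC.

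Irf8 to Irf4 gave a different order. Its median was 284 in cDC1 (99.2 to 510), 1.60 in cDC2 (0.573 to 2.57) and 115 in pDC (87.5 to 187). Here cDC1 overlapped pDC, and cDC2 stood apart from both. Batf3 to Batf had a median of 3.88 in cDC1 (3.44 to 4.78), 2.94 in cDC2 (2.63 to 3.13) and 0.00525 in pDC (0.00381 to 0.0118). Id2 to Id3 had a median of 957 in cDC1 (758 to 1376), 60.2 in cDC2 (17.0 to 97.6) and 0.402 in pDC (0.198 to 0.470). Bcl6 to Prdm1 had a median of 26.8 in cDC1 (14.5 to 65.7), 3.64 in cDC2 (2.15 to 5.88) and 2.48 in pDC (1.58 to 3.23), so that cDC1 stood apart although Bcl6 itself did not pass the test against cDC2. The cDC1 ratio rests on the low Prdm1 there, at 12 to 66 counts per library.

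**Figure D4:**
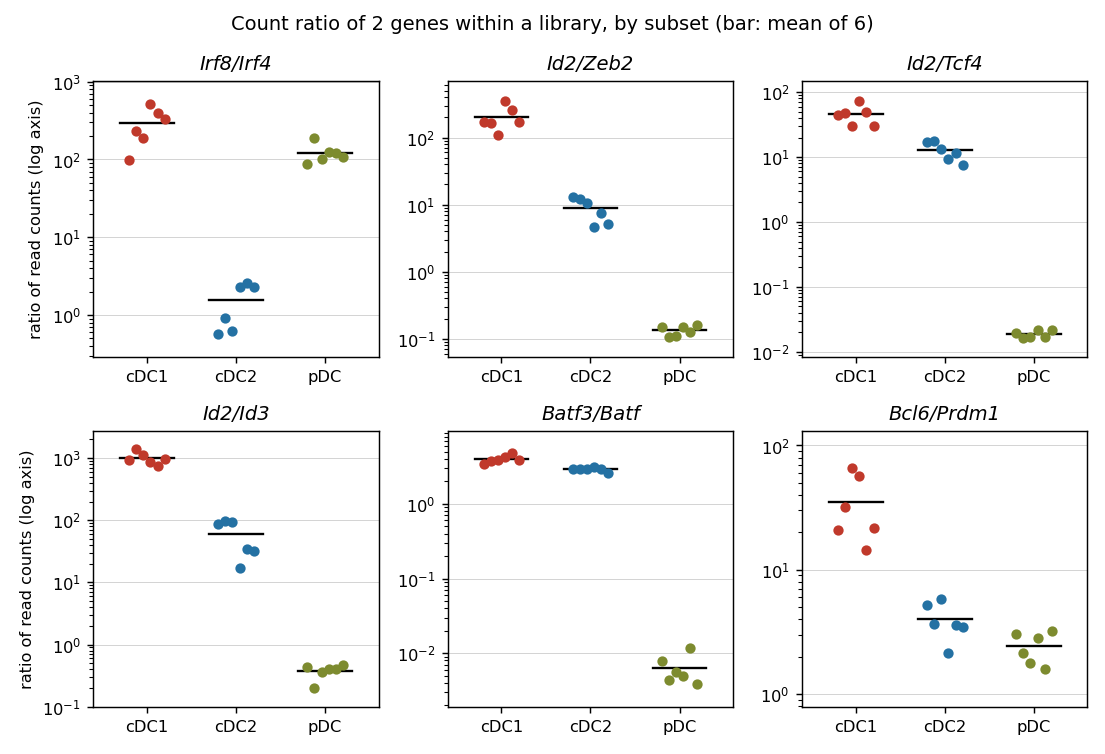
Ratios of counts within each library (log axis) for Irf8 to Irf4, Id2 to Zeb2, Id2 to Tcf4, Id2 to Id3, Batf3 to Batf and Bcl6 to Prdm1 in 6 cDC1, 6 cDC2 and 6 pDC libraries. Points are libraries and bars are subset means. The Id2 ratios separate all 3 subsets, while Irf8 to Irf4 overlaps between cDC1 and pDC, with medians (not drawn) of 284 and 115.

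Markers of other cells also differed between the subsets. All 15 tested cDC1 markers were higher in cDC1 than in cDC2 and 14 were higher than in pDC, with Tlr3 not passing the test. Of 14 cDC2 markers, 13 were lower and 1 was higher in cDC1 than in cDC2, and 7 were lower and 5 higher than in pDC. Of 16 pDC markers, all 16 were lower in cDC1 than in pDC, while 8 were higher and 3 lower than in cDC2. The lists include genes of the sort gates (Xcr1, Itgam for CD11b, and Bst2), whose directions were partly set by the sorting. The summed CPM of those pDC markers was 238 to 377 in cDC1 and 257 to 328 in cDC2, against 31117 to 34544 in pDC.

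Neutrophil markers summed to 301 to 1161 CPM in cDC1, against 27.8 to 152 CPM in cDC2 and 12.4 to 307 CPM in pDC, and 6 of 7 tested were higher in cDC1 in both comparisons. T and NK cell markers, of cells that can also express Id2 and Nfil3, summed to 32.5 to 45.7 CPM in cDC1, 6.29 to 13.5 CPM in cDC2 and 8.79 to 29.7 CPM in pDC. Of these 10 markers, 10 were higher in cDC1 than in cDC2 and 7 higher than in pDC. B cell markers summed to 132 to 196 CPM in cDC1, 101 to 136 CPM in cDC2 and 99.0 to 178 CPM in pDC, and of 7 tested, 3 were higher and 2 lower than in cDC2 and 4 were higher and 2 lower than in pDC. Erythroid markers summed to 3207 to 8826 CPM in cDC1, 3112 to 5638 CPM in cDC2 and 2329 to 6471 CPM in pDC, and of 8, 2 and 7 were higher in cDC1 than in cDC2 and pDC.

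The macrophage and monocyte list, which includes Ly6c2, a gene that pDC express, summed to 123 to 231 CPM in cDC1, 554 to 1103 CPM in cDC2 and 6726 to 7677 CPM in pDC. Of its 10 genes, 1 was higher and 7 lower in cDC1 than in cDC2, and 8 were higher and 1 lower than in pDC. With totals alone each of these marker counts moved by at most 1. No listed gene has a row total under 10, so no listed marker could be at 0 throughout a subset. The part of these other cells in the differences of the 6 regulators was not tested.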

How the data were processed

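RNA from sorted splenic dendritic cells was made into SMARTER mRNA libraries, per the labels' protocols. The authors deposited raw counts per gene in 1 table per subset; kallisto, DESeq2 and GRCm38 are named in the submitters' processing notes, without versions or parameters. Each table holds 6 libraries and lists 17017 (cDC1), 16306 (cDC2) or 16277 (pDC) genes, none with a row total under 10. The authors' 18 normalized columns were not used, since they were scaled within each table. No strand setting is given.

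Counts of the 15219 shared genes were fitted in edgeR 4.0.16 (R 4.3.3; quasi-likelihood test, TMM factors 0.851 to 1.14, each column's own table total as library size, filterByExpr), with subset as the factor and Benjamini-Hochberg adjustment over 13539 genes. Standard errors are the absolute log2 difference divided by the square root of F, and intervals are 95%. CPM (counts per 1000000) used the column's table total. No pair of libraries agreed within sampling noise (chi-square per degree of freedom at least 9.78). Alternatives were RLE factors, totals alone, shared-gene totals, no filter, DESeq2 1.42.0, limma 3.58.1 (voom), fits of 2 subsets and leaving out each library.

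The members and lists were chosen with earlier results of these data known. From each list, up to 4 called genes with the largest log2 differences were named, plus Zeb2, Irf4, Tcf4, Batf, Id3, Prdm1, Id1 and Batf2, and a few with textbook roles named after their values were seen. Some genes that this rule would name are not reported here. With totals alone, the median log2 difference over all genes was -0.17 for cDC1 against pDC and -0.20 for cDC2 against pDC, not 0.04 and 0.01, and the higher calls made up 38.6% and 37.4% of calls, not 51.7% and 50.1%.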

Additional observations from a re-analysis of the deposited data

Results flagged for a closer look

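Values of the 6 regulators, of 7 relatives and of Hdac1 were checked in each subset for a library far from the other 5, by the gap to the nearest library over the group's range (Dixon's test at the 95% level). Of 42 groups checked, 2 had such a library, and chance gives about 1 in 20. In cDC2, Zfp366 was at 43.1 CPM in library a165, with the nearest library at 50.8 CPM. In pDC, Id3 was at 103 CPM in library a162, with the nearest at 66.6 CPM. Zfp366 kept its calls when each library was left out.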

How the results depend on the processing

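All 18 differences of the 6 regulators and the 3 counts of called genes kept their direction and their side of the threshold, or stayed within 1.5 times, in 543 of 543 repeats (26 alternatives, 18 of them leaving out 1 library). The genes called numbered 6843 for cDC1 against cDC2 (6381 to 7003 over other settings, 6512 to 6815 with a library left out), 8986 for cDC1 against pDC (8644 to 9095, and 8715 to 9099) and 8684 for cDC2 against pDC (8302 to 8969, and 8442 to 8868). Nfil3 in cDC1 against cDC2 came closest to losing its call, at -0.98 to -0.69 with a library left out and a highest adjusted p of 0.0415 (edgeR). Bcl6 in the same comparison did not pass in any repeat (-0.23 to -0.11 with a library left out). With totals alone, Irf8 in cDC1 against pDC differed by -1.45, not -1.24. The fit without the lowest Nfil3 library of each subset was chosen after seeing the data, and its values for Nfil3 are not counted, since the libraries were picked on that gene. No paired analysis was possible because the column codes carry no replicate numbers. Depth limits Batf3 and Zfp366 in pDC, where each library holds at most 20 and 9 counts.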

Other observations

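Hdac1, the targeted gene, is given by library in the order of the tables' columns, with no genotype assigned. It stood at 56.9, 71.8, 74.6, 5.14, 4.94 and 9.49 CPM in cDC1, at 76.6, 66.1, 79.7, 6.07, 5.78 and 7.60 CPM in cDC2, and at 114, 110, 124, 13.1, 9.52 and 14.7 CPM in pDC. In each subset the values fell into 2 separate sets of 3. No library was grouped by these values.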
